A study of Homo sapiens with 6 samples.

Results

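The 10 genes described here are ATF4, ATF5, DDIT3, TRIB3, CEBPB, CEBPG, CHAC1, DDIT4, SESN2 and PPP1R15A, the core transcription factors of the integrated stress response and the genes that act directly beside them. They were taken by name from the array annotation as every probe set assigned to only 1 of these symbols, which gave 17 probe sets of the 54613 on the array and 10 genes of 19775. Messenger RNA was measured on 6 HG-U133 Plus 2.0 arrays, 3 from cells transfected with a negative control siRNA and 3 from cells transfected with an siRNA against RNF43, a membrane ubiquitin ligase that restrains Wnt signalling. All cells were labelled HepG2, a human hepatoblastoma-derived liver line. Transfection used a lipid reagent, and the cells were harvested 48 h later. The labels call the arrays biological replicates without saying whether they came from separate cultures, and the p-values therefore reflect array-to-array spread that may be technical.

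When a cell lacks amino acids, accumulates unfolded protein or meets another stress, kinases phosphorylate the initiation factor eIF2, general translation falls, and the mRNA of ATF4 is translated more. ATF4 is a basic leucine zipper (bZIP) factor that binds DNA as a dimer, often with a C/EBP protein, and switches on amino acid supply genes together with DDIT3, whose product is the pro-apoptotic factor CHOP. In liver cells the pathway adjusts amino acid metabolism and secretory load. Because ATF4 is controlled largely at translation, its mRNA level is not a measure of its protein.

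The promoters of 3 members are shown because they hold the letters the pathway's factors are known to bind, or lie before the member with the largest difference. The motifs searched on both strands were TGATGNAA (TTNCATCA on the other strand), the core of the C/EBP-ATF response element bound by ATF4 dimers, and CCAAT, the box bound by NF-Y; they do not overlap each other in the sequences below. Sequences are from RefSeq on GRCh38.p14, 5′ to 3′ in the direction of the gene, with motif matches in capitals. They cover chr15:40953221-40953470 on the plus strand for CHAC1 and chr12:57520515-57520764 on the minus strand for DDIT3, each the 250 bases before a transcription start, and 30 bases at chr19:33374060-33374089 on the plus strand for CEBPG.
CHAC1: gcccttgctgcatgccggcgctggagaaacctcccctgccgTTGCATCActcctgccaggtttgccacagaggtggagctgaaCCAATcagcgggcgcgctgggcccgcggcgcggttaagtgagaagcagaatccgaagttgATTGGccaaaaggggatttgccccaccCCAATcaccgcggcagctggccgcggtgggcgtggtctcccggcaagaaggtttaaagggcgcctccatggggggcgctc
DDIT3: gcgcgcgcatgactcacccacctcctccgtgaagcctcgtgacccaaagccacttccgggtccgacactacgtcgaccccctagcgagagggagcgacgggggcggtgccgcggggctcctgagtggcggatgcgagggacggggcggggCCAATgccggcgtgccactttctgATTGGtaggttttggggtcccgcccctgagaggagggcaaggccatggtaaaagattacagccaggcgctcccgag
CEBPG: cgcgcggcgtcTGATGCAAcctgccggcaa

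All 10 members had promoters in the table, at 18 annotated starts. TGATGNAA was found in the 250 bases before 2 of these 18 starts, 1 of CHAC1 and 1 of CEBPG, and in 3.14% of all 35116 promoters. In CHAC1 it lay 209 to 202 bases before the start on the opposite strand. In CEBPG it lay 42 to 35 bases before the downstream of 2 starts. CCAAT was found before 7 of the 18 starts and in 32.0% of all promoters. The 7 starts belong to CEBPB, CEBPG, CHAC1, DDIT3, DDIT4 and SESN2. CHAC1 held 3 such boxes, and DDIT3 a pair in opposite orientations, 100 to 96 and 76 to 72 bases before the start shown. Neither motif was found in these windows of ATF4, ATF5, TRIB3 or PPP1R15A. These are matches of letters only.

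Before the results, the labels were checked against the arrays. RNF43 mRNA did not follow the labels, reading 7.65, 7.79 and 7.45 on the control arrays and 8.19, 8.22 and 8.41 on those labelled RNF43 siRNA in log2 signal (log2 difference 0.64, SE 0.14, adjusted p = 0.0098), so directions below, and the words fell and rose, refer to the arrays as labelled and not to a measured loss of RNF43 mRNA. Whether labels were exchanged was not tested, and an exchange would turn the sign of every difference given. Without both arrays numbered 3 the difference was 0.48 and did not pass (adjusted p = 0.0537; alternatives from 0.00585 to 0.0537). The markers also went against the name HepG2. Of 14 measured hepatocyte markers 13 lay below the filter on low signal, a log2 signal of 5.83, among them ALB at 4.19 ± 0.32 (SD, n = 3) and APOA1 at 5.18 ± 1.47 (SD, n = 3) on the control arrays, and none was at the floor of 0. AFP alone passed the filter, at 7.01 ± 0.11 and 6.41 ± 0.26 (SD, n = 3 each; adjusted p = 0.0877). By contrast 9 of 13 fibroblast and stellate cell markers passed the filter, and LUM reached 13.36 ± 0.06 (SD, n = 3) on the control arrays. COL1A2, PDGFRA, PDGFRB and THY1 did not pass it. The summed linear signal of the 13 was 16401 to 16568 on the control arrays and 13104 to 14304 on those labelled RNF43 siRNA. This sum is largely LUM, the brightest of the 13, whose own log2 difference of -0.18 (SE 0.07) did not pass (limma adjusted p = 0.0926). Of the 9 tested, 4 were lower and 1, TAGLN, higher (log2 difference 0.54, SE 0.15, limma adjusted p = 0.0270). The share called was 55.6%, against 22.6% of all genes tested. COL3A1, a fibrillar collagen, was 2.54-fold lower (adjusted p = 4.94e-05). With probe sets averaged per gene only 1 marker was lower and 0 were higher. LUM and the fibroblast markers below the filter were named after their values were seen. Of 7 measured genes in the immune list only HBB, an erythroid globin, passed the filter, and PTPRC, CD3E, CD14, LYZ, CSF1R and ITGAM did not. Of 7 endothelial markers only PECAM1 passed. Neither HBB nor PECAM1 passed the test. The summed linear signal of the endothelial list was 210 to 221 on the control arrays and 262 to 288 on those labelled RNF43 siRNA. For the hepatocyte list it was 473 to 559 against 364 to 421, and for the immune list 260 to 381 against 279 to 414. All but 1 gene in each of these lists lay below the filter. In bulk RNA fewer cells of a type and less RNA per cell cannot be told apart, and the part of these marker differences in the results below was not tested.

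On the arrays labelled RNF43 siRNA 3 of the 10 members, ATF4, DDIT3 and TRIB3, had fallen and 0 had risen. At an unadjusted p under 0.05 limma gave 4 lower and 2 higher, with PPP1R15A added to the former and ATF5 and DDIT4 making up the latter. At that unadjusted threshold 4128 of the 11853 genes tested passed in either direction. Among all 11853 genes tested 11.1% were lower, 11.5% higher and 22.6% changed in either direction, by limma with Benjamini-Hochberg adjustment over all of them and a threshold of 0.05. For 5 members the 2 sets of arrays had no overlap in signal, as was so for 38.9% of all genes tested. The median log2 difference was -0.14 over the members and -0.0028 over all genes tested. Both the members and the lists below were chosen when earlier results of these data were known. Their shares and medians beside those of all genes are therefore not independent evidence. All 10 members passed the filter on low signal by their brightest probe set.

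**Figure D1:**
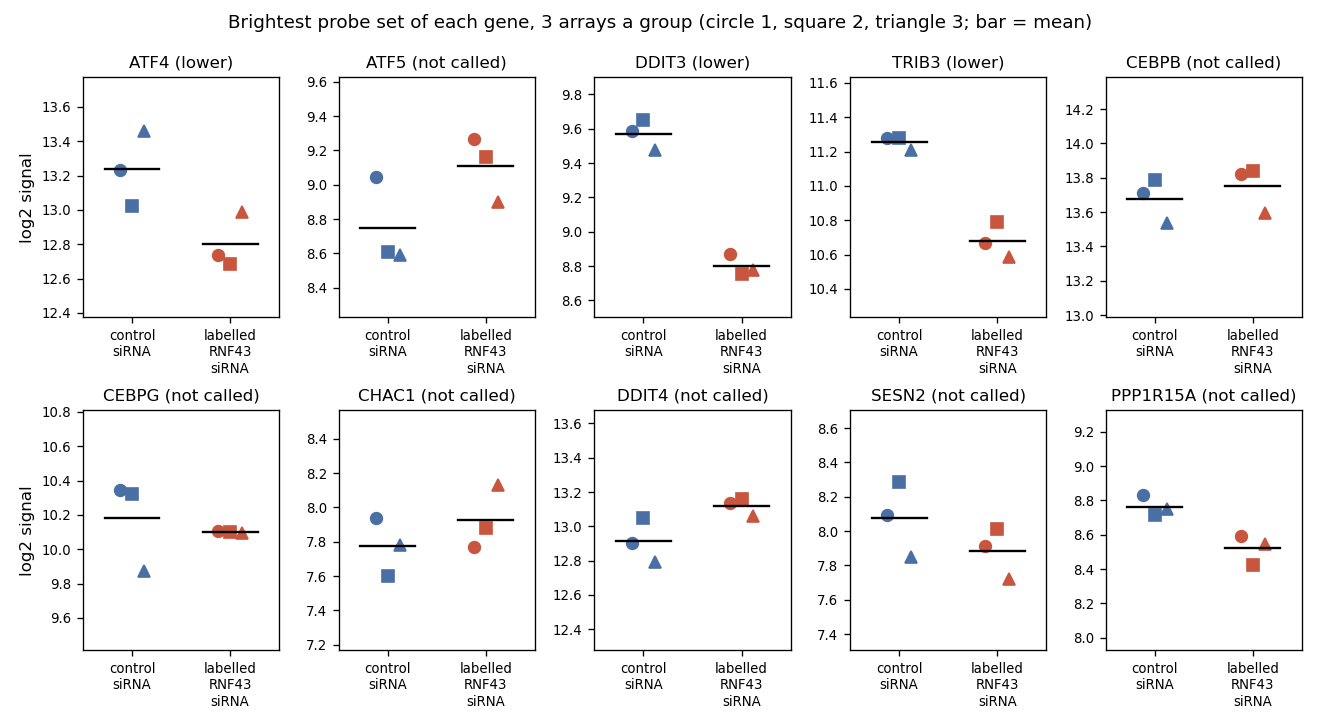
Log2 signal (vertical axis, panels of equal span) of the brightest probe set of each member on the 3 control arrays (blue) and the 3 arrays labelled RNF43 siRNA (red), with the group mean as a bar and the replicate number as the symbol. ATF4, DDIT3, TRIB3 and PPP1R15A have all control values above all others, DDIT4 has all below, and the remaining 5 panels overlap.

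ATF4, the factor at the head of the pathway, had log2 signals of 13.23, 13.02 and 13.46 on the control arrays and 12.73, 12.68 and 12.99 on the arrays labelled RNF43 siRNA. The groups did not overlap, but the highest RNF43 siRNA array, replicate 3, came within 0.04 of the lowest control array, replicate 2. The difference was 1.35-fold (95% confidence interval 1.14 to 1.61; log2 difference -0.44, SE 0.11, adjusted p = 0.0181). The call was lost without control siRNA replicate 1 (adjusted p = 0.0514), without RNF43 siRNA replicate 1 (0.0612) or replicate 2 (0.0824), and without an intensity trend in the fit (0.0795), in a range of 3.76e-05 to 0.0824 over all alternatives.

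DDIT3 encodes CHOP, a bZIP factor that pairs with C/EBP proteins and promotes cell death under prolonged stress. Its log2 signal was 9.59, 9.65 and 9.48 on the control arrays and 8.87, 8.75 and 8.78 on the others. The lowest control value lay 0.61 above the highest value labelled RNF43 siRNA, the widest gap among the members. The fall was 1.71-fold (95% confidence interval 1.47 to 1.97; log2 difference -0.77, SE 0.10, adjusted p = 3.23e-04). It passed in all 19 alternatives, with log2 differences from -0.82 to -0.69.

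ATF5, a relative of ATF4 that is also induced through eIF2 phosphorylation, gave discordant probe sets. The brightest of 4 read 9.05, 8.61 and 8.59 on the control arrays and 9.26, 9.16 and 8.90 on the arrays labelled RNF43 siRNA. Control siRNA replicate 1 stood above the lowest of these, so the groups overlapped, and the log2 difference of 0.36 (SE 0.15) did not pass (adjusted p = 0.11). Without that control array it was 0.51 and passed (adjusted p = 0.0351, alternatives from 0.0195 to 0.48). The next brightest differed by 0.05 (SE 0.20), and the third, barely above the filter, by -0.69 (SE 0.34) with no overlap between groups. The dimmest lay below the filter with 5.06, 3.71 and 6.17 against 3.78, 5.01 and 3.44 and was not tested. Averaged over all 4 of its probe sets, the untested dimmest one included, the log2 difference of ATF5 was -0.30. No direction is therefore given for this gene.

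CEBPB, a C/EBP factor active in liver and a dimer partner of both ATF4 and CHOP, read 13.71, 13.78 and 13.54 on the control arrays and 13.82, 13.84 and 13.60 on the others. The groups overlapped, and the log2 difference was 0.07 (95% confidence interval -0.12 to 0.26; adjusted p = 0.585). CEBPG, a short C/EBP protein that lacks an activation domain and dimerises with ATF4, read 10.34, 10.32 and 9.88 against 10.11, 10.10 and 10.10 on its brighter probe set. The low array here was control siRNA replicate 3, and the log2 difference was -0.08 (95% confidence interval -0.34 to 0.19; adjusted p = 0.69), or 0.003 without control siRNA replicate 1. The other CEBPG probe set had all control values above the rest, but its log2 difference of -0.21 (SE 0.10) missed the threshold (adjusted p = 0.212).

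TRIB3, a pseudokinase induced by ATF4 and CHOP that in turn binds and restrains ATF4, was the other member with a clear gap. Its log2 signal was 11.28, 11.28 and 11.21 on the control arrays and 10.67, 10.79 and 10.59 on the arrays labelled RNF43 siRNA. The 1.49-fold fall (95% confidence interval 1.32 to 1.68; log2 difference -0.57, SE 0.08, adjusted p = 5.56e-04) passed in all 19 alternatives. The second TRIB3 probe set read 7.53, 7.56 and 7.64 against 6.95, 7.15 and 7.25. It too did not overlap, with a log2 difference of -0.46 (SE 0.16) that missed the threshold in the fit over probe sets (adjusted p = 0.0839).

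PPP1R15A encodes GADD34, which brings a phosphatase to eIF2 and so ends the response. It read 8.83, 8.72 and 8.75 on the control arrays and 8.59, 8.42 and 8.55 on the others, without overlap. The log2 difference of -0.24 (SE 0.11) had a confidence interval of -0.48 to -0.01 and did not pass (adjusted p = 0.132). The dimmer probe set differed by -0.16 (SE 0.18), with overlapping groups.

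CHAC1, which degrades glutathione and is induced by ATF4 and CHOP, read 7.94, 7.60 and 7.78 against 7.77, 7.88 and 8.13. The groups overlapped and the log2 difference was 0.15 (95% confidence interval -0.19 to 0.50; adjusted p = 0.532). DDIT4 encodes REDD1, a stress-induced inhibitor of the growth kinase complex TORC1. It was the member whose values were all higher on the arrays labelled RNF43 siRNA, at 13.14, 13.16 and 13.06 against 12.90, 13.05 and 12.79. RNF43 siRNA replicate 3 and control siRNA replicate 2 were only 0.01 apart, and the 1.15-fold difference (95% confidence interval 1.03 to 1.29; log2 difference 0.20, SE 0.07) did not pass (adjusted p = 0.0793). It passed without control siRNA replicate 2 (adjusted p = 0.0448; alternatives from 0.0102 to 0.209). SESN2, a leucine sensor that also restrains TORC1, read 8.09, 8.29 and 7.85 against 7.91, 8.01 and 7.72. Its groups overlapped, with log2 differences of -0.19 (95% confidence interval -0.54 to 0.15; adjusted p = 0.417) on the brighter probe set and -0.25 (SE 0.18) on the other.

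**Figure D2:**
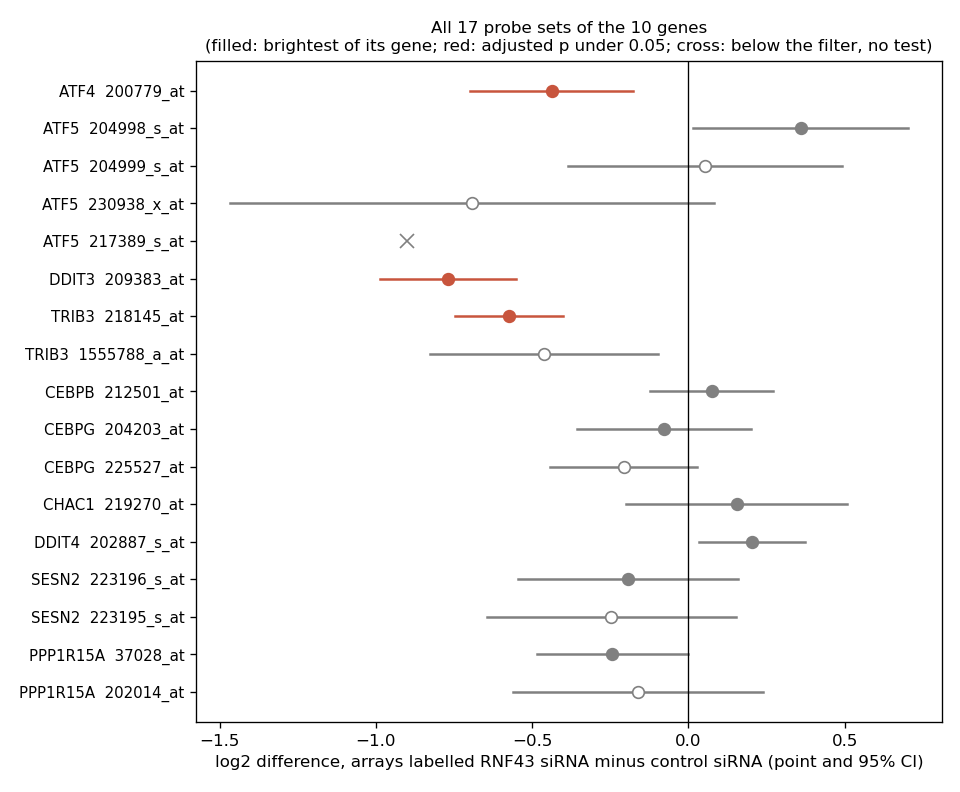
Log2 difference between arrays labelled RNF43 siRNA and control arrays (horizontal axis) with its 95% confidence interval for the 16 member probe sets in the fit over probe sets. A cross marks the plain difference of the dimmest ATF5 probe set, which lay below the filter and was not fitted. ATF4, DDIT3 and TRIB3 (red) pass on their brightest probe sets, the second TRIB3 probe set lies on the same side, and the 4 ATF5 probe sets spread from 0.36 to the unfitted -0.90.

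In the fit over all 22660 probe sets above the filter 17.7% changed, and 3 of the 16 member probe sets did, the brightest of ATF4, DDIT3 and TRIB3 with adjusted p from 9.54e-04 to 0.0305. In the 5 members with more than 1 probe set, the 6 dimmer ones above the filter gave 0 calls by limma, and 1 of them, the second of TRIB3, had an unadjusted p under 0.05. TRIB3, CEBPG, SESN2 and PPP1R15A had the same sign on both of their probe sets, all of them negative, and ATF5 was the exception.

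Differences between members on the same arrays were read as the log2 ratio of each brightest probe set to that of ATF4, which cancels any scale factor of an array. Relative to ATF4, ATF5 shifted by 0.80, DDIT4 by 0.64 and CHAC1 by 0.59 log2 units upward on the arrays labelled RNF43 siRNA, in each case without overlap between the groups (exact two-sided permutation test p = 0.1, adjusted 0.3 over the 9 ratios). A design of 3 against 3 arrays cannot give a p below 0.1. The ATF5 shift was read from its brightest probe set alone. Its other tested probe sets differed between the groups by 0.05 and -0.69, so the shift gives no direction for this gene. DDIT3 shifted by -0.33 relative to ATF4 with overlapping groups (exact permutation p = 0.3), and TRIB3 by -0.14 (exact permutation p = 0.6). The remaining ratios, of CEBPB, CEBPG, SESN2 and PPP1R15A, shifted by 0.19 to 0.51 with overlap.

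Likeness between profiles was measured as the root mean square difference between 2 genes over the 6 arrays, each gene centred on its own mean. It was computed to DDIT3 and to TRIB3 only. These lay 0.13 log2 units from each other, and of the members ATF5 was farthest from DDIT3, at 0.59. Outside the members the nearest to DDIT3 were ZNF239 at 0.03, and GGACT, C1S, TPM4 and ZNF271P at 0.05. C1S is a complement protease and TPM4 a tropomyosin, and their log2 differences were -0.82 and -0.85. The nearest to TRIB3 were EFNB2 at 0.03, and HDLBP, P3H1, ZNF267 and OSBP at 0.04 to 0.05. EFNB2 is an ephrin ligand, P3H1 hydroxylates collagen and OSBP binds sterols. With 6 arrays in 2 groups such profiles share mainly the difference between groups, and these distances are a description.

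The step before ATF4 was read from 20 genes. They cover the eIF2 kinases and their regulators, eIF2 subunits, the eIF2 phosphatase, the exchange factor eIF2B and EIF2A. Kinases and inhibitors of kinases are counted together, so the counts give no direction for this step. All 20 were tested, 5 were lower and 0 higher (8 and 2 at an unadjusted p under 0.05 by limma), with a median log2 difference of -0.11. The share called was 25%, near the 22.6% of all genes tested. At an unadjusted p under 0.05 by limma 4128 of all 11853 genes tested passed. DNAJC3, a co-chaperone that inhibits eIF2 kinases, had log2 signals of 12.12, 12.19 and 12.12 against 11.66, 11.72 and 11.59. The groups were well apart (log2 difference -0.48, SE 0.07, adjusted p = 6.62e-04). EIF2AK3, the endoplasmic reticulum stress kinase PERK, fell 1.45-fold on its brightest probe set (adjusted p = 0.00207), a call lost when its probe sets were averaged (adjusted p = 0.537; alternatives ran from 1.19e-04 up to this). The log2 difference of EIF2AK3 ran from -0.59 to -0.47 over all alternatives. EIF2B3, a subunit of eIF2B, fell 1.32-fold, IMPACT, an inhibitor of the amino acid sensing kinase GCN2, 1.34-fold, and EIF2A, an alternative initiation factor, 1.24-fold. IMPACT was lost when its probe sets were averaged (adjusted p = 0.239) or when those with the suffixes _x_at and _s_at, which can match several transcripts, were dropped (0.962, range 0.00322 to 0.962), and EIF2A without RNF43 siRNA replicate 2 (0.052, range 9.67e-04 to 0.052). EIF2AK4, which encodes GCN2 and was named after its value was seen, differed by -0.15 (SE 0.07, adjusted p = 0.158). PPP1R15B, the constitutive counterpart of PPP1R15A and also named afterwards, differed by 0.17 (SE 0.07, adjusted p = 0.109).

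Among the other bZIP factors, possible dimer partners or competitors of ATF4 and CHOP, 33 of 46 were tested. Of these 7 were lower and 3 higher, 30.3% against 22.6% of all genes tested, and the median log2 difference was -0.01. The count includes CEBPZ, which despite its name has no leucine zipper. CEBPZ was not called (log2 difference 0.06, SE 0.09) and was named after its value was seen. CREBL2 fell 1.46-fold, CREB3, a factor of the Golgi stress response, 1.44-fold and CREB3L2, a regulator of secretory genes, by 0.48 on the log2 scale. CEBPD fell 1.33-fold and NFE2L1, which controls proteasome genes, 1.25-fold. ATF3, induced by ATF4 and named after its value was seen, read 9.87, 9.97 and 9.84 against 9.51, 9.45 and 9.60, a 1.29-fold fall (adjusted p = 0.0119). In the other direction CEBPA, a factor of hepatocyte differentiation, was 1.42-fold higher, NFE2L3 1.46-fold and CREB1, which mediates cyclic AMP signals, 1.27-fold. The count of 3 depended on single arrays: without control siRNA replicate 1 or RNF43 siRNA replicate 2 the count of higher factors was 1, without control siRNA replicate 2, or RNF43 siRNA replicate 1 or 3, it was 2, and without control siRNA replicate 3 it was 7. The count of lower factors was 4 without RNF43 siRNA replicate 2 and 3 with _x_at and _s_at probe sets dropped. Averaging over probe sets ended the calls of CREB3L2 (adjusted p = 0.0991), CEBPD (0.603), CREB1 (0.655) and NFE2L3 (0.0796).

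Of 63 other genes known as targets of ATF4 or CHOP, 53 were tested, 21 were lower and 3 higher, with a median log2 difference of -0.19. That is 45.3% called, against 22.6% of all genes tested. The list overlaps one already seen to be lower on these arrays, so its direction is not independent evidence. The count of higher genes was 5 without control siRNA replicate 3. The count of lower genes was 13 without control siRNA replicate 2, and 11 with _x_at and _s_at probe sets dropped, where fewer genes were tested.

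**Figure D3:**
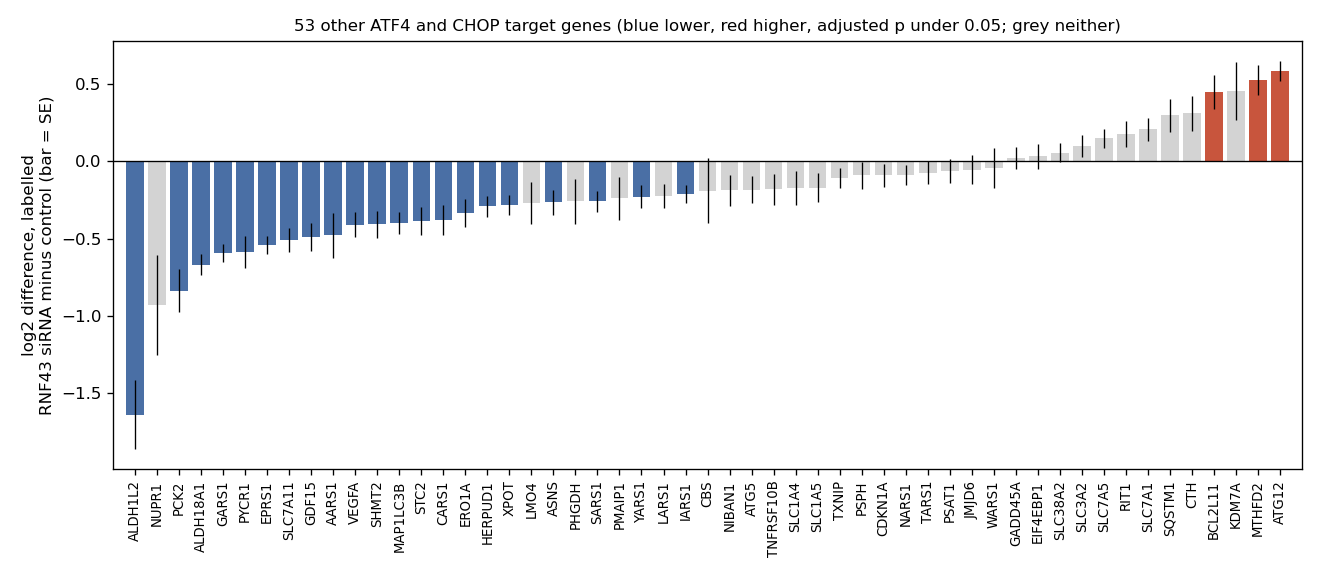
Log2 difference (vertical axis, bars with SE) of the 53 tested target genes in order of size, blue where lower and red where higher at adjusted p under 0.05. ALDH1L2 has the lowest value, and the 3 genes called higher, BCL2L11, MTHFD2 and ATG12, stand at the right end.

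The targets are given by role, in groups made after the values were seen and not tested as groups. Among all 11853 genes tested 11.1% were lower and 11.5% higher, and 4128 had an unadjusted p under 0.05 by limma. Of 12 tested tRNA synthetases and the tRNA exporter, 8 were lower and 0 higher, also 0 higher at an unadjusted p under 0.05 by limma. GARS1, the glycyl-tRNA synthetase, read 13.52, 13.50 and 13.52 against 12.99, 12.88 and 12.89 and fell 1.51-fold (log2 difference -0.59, SE 0.06, adjusted p = 8.89e-05). EPRS1 fell 1.45-fold, or by 0.98 on the log2 scale when its probe sets were averaged. Of 12 enzymes of amino acid and one-carbon synthesis 6 were lower and 1 higher. ALDH18A1, which starts proline synthesis, fell 1.59-fold from 12.57, 12.41 and 12.52 to 11.84, 11.85 and 11.81. ALDH1L2, a mitochondrial folate enzyme, read 7.39, 7.47 and 7.54 against 5.60, 6.01 and 5.88, the latter near the filter, so its log2 difference of -1.64 became -0.99 with 64 added to the linear signal. MTHFD2 and SHMT2 are successive enzymes of the mitochondrial folate pathway. MTHFD2 was 1.44-fold higher, at 12.65, 12.83 and 12.89 against 12.19, 12.15 and 12.46. SHMT2, named after its value was seen, was 1.33-fold lower, at 11.96, 11.66 and 11.76 against 12.25, 12.09 and 12.27. Of 7 tested amino acid transporters only SLC7A11, the cystine carrier, was lower (1.42-fold, adjusted p = 0.00117, named after its value was seen), and the median log2 difference of the 7 was 0.06.

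Of 7 tested genes of cell death, cell cycle arrest and redox control 1 was lower and 1 higher, with a median log2 difference of -0.11. For these small groups too the shares of all genes tested were 11.1% lower and 11.5% higher. BCL2L11, which encodes the pro-apoptotic protein BIM, read 9.40, 9.27 and 9.08 against 9.82, 9.62 and 9.66, a 1.37-fold rise on its brightest probe set that did not hold when its probe sets were averaged (adjusted p = 0.557) or without RNF43 siRNA replicate 1 (0.0554). The lower gene was ERO1A, an oxidase of the endoplasmic reticulum, and TNFRSF10B, PMAIP1, GADD45A, CDKN1A and TXNIP did not pass. Of 4 autophagy genes MAP1LC3B was lower, and ATG12, part of the conjugation machinery, was higher (log2 difference 0.59, SE 0.07, adjusted p = 1.65e-04). Of 8 secreted factors and receptors listed only GDF15, STC2 and VEGFA were tested, and all 3 were lower. Apart from ATG12 and BCL2L11 the genes named in this paragraph were taken after their values were seen.

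Genes around DDIT4 and SESN2 in the control of TORC1 went both ways. Of 34 tested 6 were lower and 5 higher, 32.4% against 22.6% of all genes tested, with a median log2 difference of -0.11. SESN1, the p53-induced relative of SESN2, read 8.25, 8.36 and 8.29 against 9.20, 9.14 and 8.75 and was 1.66-fold higher (adjusted p = 0.00325). RHEB, the small GTPase that activates TORC1, was 1.27-fold higher, a call lost on averaging its probe sets (adjusted p = 0.191). TSC2, which acts on RHEB, and TBC1D7, a subunit of the same complex, were called higher at adjusted p of 0.0475 and 0.0345, and each was lost in at least 7 of the alternatives. SEC13 and SEH1L belong to one complex upstream of TORC1 and are also nuclear pore proteins; SEC13 fell 1.42-fold and SEH1L rose 1.47-fold. NPRL3, an inhibitor of the amino acid branch, fell 1.66-fold on its brightest probe set, and that call too was lost on averaging (adjusted p = 0.566). The count of higher genes was 3 without control siRNA replicate 1 or RNF43 siRNA replicate 1 or 2.

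In the list of tribbles, CHAC and glutathione genes 12 were tested, 1 was lower and 2 higher, a share of 25% near the 22.6% of all genes tested. GPX8, a peroxidase of the endoplasmic reticulum, read 11.22, 11.20 and 11.46 against 12.60, 12.60 and 12.75, a 2.57-fold rise (log2 difference 1.36, SE 0.09, adjusted p = 5.43e-06). GGCT, a gamma-glutamyl cyclotransferase, rose 1.21-fold, a call lost without control siRNA replicate 1 (adjusted p = 0.0723) or 2 (0.0741). TRIB1, a relative of TRIB3, was 1.16-fold lower, and lost its call without any 1 of the 6 arrays (adjusted p 0.011 to 0.89 over all alternatives). CHAC2, the constitutive relative of CHAC1, named after its value was seen, differed by 0.02 (SE 0.09).

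**Figure D4:**
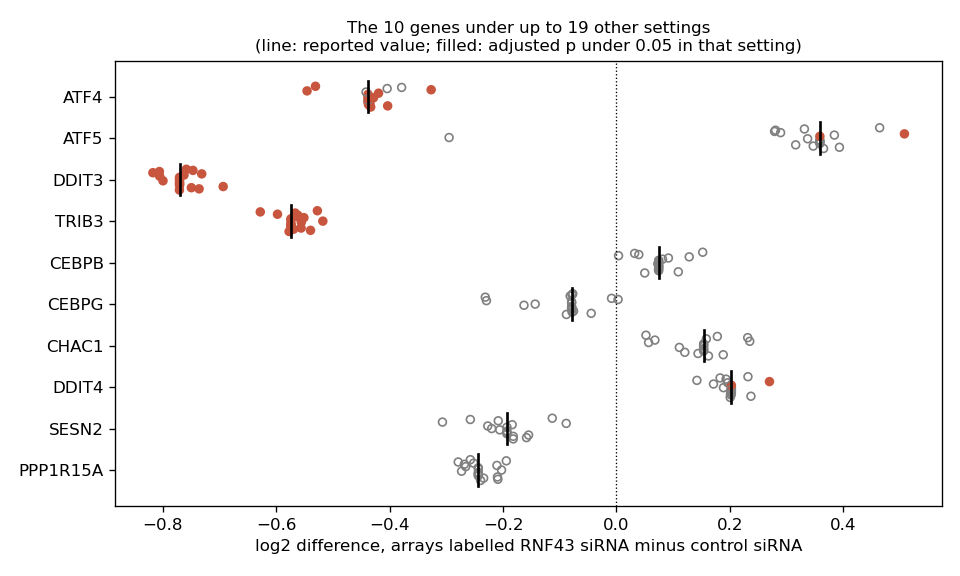
Log2 difference (horizontal axis) of each member in the reported fit (black line) and under up to 19 other settings (points, filled red where the adjusted p is under 0.05). DDIT3 and TRIB3 pass in all 19, ATF4 in 15, and the points of ATF5 and CEBPG fall on both sides of 0.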

How the data were processed

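Values deposited by the authors were log2 signals of 6 arrays, 1 column an array. Per the submitters' processing notes they came from MAS5, and neither its version nor its scaling target is stated there. Read as log2, linear means trimmed by 2% at each end were 497.03 to 497.23 on all arrays, so arrays had been scaled. Exact zeros, 391 to 628 an array, were read as a floor. No further normalization was applied. At most 0.00183% of values above the floor were equal between 2 arrays. The number of arrays limits the precision.

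Arrays were grouped by title. Probe sets were named through the platform annotation with symbols updated to RefSeq: 41091 named 1 gene, 1801 several and 11721 none here. Each gene was read by its brightest probe set, tested where its mean exceeded the median of all probe sets (log2 5.83). limma 3.58.1 in R 4.3.3 (lmFit, eBayes with intensity trend) gave two-sided tests. A second fit covered probe sets. The steps were tested on simulated data. The protein comparison planned for the bZIP members was not run.

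The members and lists were chosen with earlier results of these data known. Of 230 list symbols 218 were measured. Named genes are all members, RNF43, ALB, AFP, APOA1, up to 5 changed genes with the smallest p in each list, those against a list's majority, and the 5 nearest profiles of DDIT3 and TRIB3. Alternatives covered normalization, added signal, filter, variance model, array weights, probe set choice, replicate block, threshold and arrays left out. Averages over the probe sets of a gene included those below the filter.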

Additional observations from a re-analysis of the deposited data

How the results depend on the processing

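DDIT3 and TRIB3 kept their direction and call in all 19 alternatives and ATF4 in 15, always with the same sign. CEBPB, CHAC1, SESN2 and PPP1R15A passed in none of theirs. The count of members changed was 5 with the replicate block, which added ATF5 and DDIT4, and 2 to 4 without 1 array. The rule for pairing asked for a correlation over 0.1 in every same-numbered pair, and it was not met: deviations correlated at 0.16, 0.08 and 0.27 over genes. All 3 were positive, control siRNA replicate 2 correlated best with another number, and whether the numbers share a culture or day is not stated in the labels. The block raised the count of genes changed from 2684 to 3908. The count of genes changed was 1587 when probe sets were averaged per gene, 1370 at adjusted p under 0.01 and 1741 to 2656 without 1 array, lowest without RNF43 siRNA replicate 2. Averaging probe sets gave 4 lower bZIP factors and 2 higher TORC1 genes, array weights 7 higher bZIP factors and 6 higher target genes, centring each array 6 higher bZIP factors, and leaving out both arrays numbered 3 gave 6 higher bZIP factors and 6 higher target genes. At adjusted p under 0.01 there were 11 lower target genes, 4 lower and 0 higher bZIP factors, 2 lower eIF2 genes and 3 higher TORC1 genes. Over all genes, centring each array on its median gave 1044 lower and 1534 higher, against 1320 and 1364. The log2 difference of RNF43 was 0.48 with both arrays numbered 3 left out. ATF5 reversed to -0.30 when its probe sets were averaged, and CEBPG ranged from -0.23 to 0.0030 without 1 array. The cause of these changes was not tested. Shifts relative to ATF4 under the other settings were computed after the data were seen. With the last 100 bases searched, 1 member held TGATGNAA and 5 held CCAAT. Dim probe sets, such as those of ATF5 near the filter, limit what is read.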
